A study of Mus musculus with 9 samples.

Results

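The 34 genes described here act in G2 and mitosis, the part of the cell cycle in which a cell that has copied its DNA sorts the copies into daughter cells. They come from a list of 35 genes chosen by function, each taken as the brightest probe set that carried that gene symbol and no other. Ccnb1, the cyclin B1 gene, had no such probe set and was not analysed here, which left 34 of the 19938 genes measured. By role, 8 genes drive mitotic entry, 10 act at the kinetochore or in the spindle checkpoint, 7 are spindle motors or spindle proteins, 7 act in mitotic exit and cytokinesis, and 2 (Top2a and Mki67) act on the chromosomes themselves.

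Expression was measured on 9 Affymetrix arrays of total RNA from R1E, an embryonic stem cell line of the mouse. Cells were cultured in Knockout DMEM with 15% fetal bovine serum and leukemia inhibitory factor at 1000 units/ml, a cytokine that maintains the undifferentiated state, and received no drug. The control group, shLuc, carried a hairpin directed at luciferase, a gene mouse cells lack, delivered by lentivirus as a short hairpin RNA. The groups shApela_1 and shApela_2 were transduced with either of 2 lentiviral hairpins against Apela, which encodes a small secreted ligand of the apelin receptor. Each group had 3 arrays, numbered 1 to 3 in the titles. All 3 groups thus carried a lentiviral hairpin, and no untransduced cells are among the samples. The sources used here do not say whether arrays of 1 group came from separate cultures, nor whether the cells were a pool or a clone. The p-values therefore reflect the spread among these arrays alone, which may be technical.

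Mitotic entry is driven by Cdk1 bound to cyclins A and B, which phosphatases of the Cdc25 family switch on, together with the kinases of the polo and aurora families. The spindle checkpoint then holds the anaphase-promoting complex, a ubiquitin ligase, inactive until every chromosome is attached to the spindle, after which Cdc20 turns the complex on and securin and the cyclins are destroyed. Many of these genes are transcribed late in the cell cycle through a shared promoter element, the cell cycle genes homology region (CHR), bound by the DREAM and MuvB-based complexes, often with CCAAT boxes bound by NF-Y. Embryonic stem cells divide fast and spend much of their cycle in S, G2 and M phase. In bulk RNA, fewer cells in mitosis and less mitotic RNA per cell cannot be told apart.

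Promoter sequences are shown because many of these genes, though not all, share short sequence matches there, beyond the function by which they were listed. RefSeq (GRCm38.p6) windows of 300 bases, 250 before the start and 50 from it on, were at hand for 29 of the 34 genes, 31 windows in all since Bub3 and Ect2 had 2 each. Ccna2, Cdc25c, Aurkb, Kif20a and Tpx2 had none. The 120 bases before the start follow for 6 genes, 1 or more from each role: Cdk1 at chr10:69352913-69353032 (minus strand), Cenpf at chr1:189688087-189688206 (minus), Kif11 at chr19:37376262-37376381 (plus), Cdc20 at chr4:118437344-118437463 (minus), Espl1 at chr15:102296173-102296292 (plus) and Top2a at chr11:99024190-99024309 (minus). Each is printed 5′ to 3′ along the gene, with capitals for CHR letters (TTTGAA or TTCGAA) and for CCAAT, on either strand, so that TTCAAA and ATTGG are matches on the opposite strand.
Cdk1: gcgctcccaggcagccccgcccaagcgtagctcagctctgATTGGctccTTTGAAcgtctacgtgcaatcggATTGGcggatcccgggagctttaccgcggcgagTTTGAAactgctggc
Cenpf: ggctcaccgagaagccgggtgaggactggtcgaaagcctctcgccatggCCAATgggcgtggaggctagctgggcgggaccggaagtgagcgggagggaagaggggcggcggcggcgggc
Kif11: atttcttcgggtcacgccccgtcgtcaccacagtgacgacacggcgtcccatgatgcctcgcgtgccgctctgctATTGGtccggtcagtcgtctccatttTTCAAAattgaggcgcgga
Cdc20: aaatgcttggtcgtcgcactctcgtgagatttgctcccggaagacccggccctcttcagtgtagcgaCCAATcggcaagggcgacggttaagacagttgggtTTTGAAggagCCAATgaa
Espl1: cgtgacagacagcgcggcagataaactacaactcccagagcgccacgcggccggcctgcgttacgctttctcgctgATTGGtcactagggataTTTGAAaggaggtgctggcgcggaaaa
Top2a: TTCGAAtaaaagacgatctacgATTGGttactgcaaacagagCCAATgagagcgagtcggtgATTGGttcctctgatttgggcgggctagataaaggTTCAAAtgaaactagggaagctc
Counted from the start, the nearest CHR match began at -15 in Cdk1, -18 in Cdc20, -19 in Kif11, -23 in Top2a and -27 in Espl1. In Cenpf it began at position 3, just past the printed stretch. Over the 31 windows, 25 (80.6%) held a CHR match, against 19.2% of the 32851 promoter windows in the table. Within 50 bases of the start the share was 74.2% (23 windows), against 5.31%. CCAAT was found in 24 windows (77.4%, against 37.4%), and 17 windows (54.8%, against 11.7%) held 2 or more copies. A CHR match near the start together with a CCAAT match was present in 21 windows (67.7%), against 2.24% of all windows. Mad2l1, Nuf2, Nusap1, Pttg1 and Birc5 held neither set of letters in this window, and Cenpe held CCAAT only. These are matches to letters and do not show that a factor binds there.

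The targeted gene was lower with both hairpins. On the log2 scale (mean ± SD, n = 3 arrays) Apela measured 11.30 ± 0.10 with the control hairpin, 9.70 ± 0.06 with shApela_1 and 9.71 ± 0.14 with shApela_2. The differences from shLuc were -1.60 (limma adjusted p = 0.000197) and -1.58 (limma adjusted p = 0.000219). All 10 embryonic stem cell markers examined, such as Pou5f1 and Nanog, lay above the table median of 7.06, with gene means from 10.09 to 12.82. The markers of fibroblasts (5 of 8 above the median, with a list mean per array of 6.50 to 6.73), endoderm (3 of 6, 6.84 to 7.07), primitive streak and mesoderm (1 of 5, 6.50 to 6.65), neuroectoderm (2 of 5, 6.54 to 6.79) and trophectoderm (3 of 6, 7.20 to 7.67) gave 0 calls by limma in any comparison. Below the threshold, some of these markers differed from shLuc by more than any of the 34 genes: with shApela_1 the endoderm marker Dab2 was at -0.34 (limma adjusted p = 0.117) and the trophectoderm keratins Krt8 and Krt18 were at -0.49 (limma adjusted p = 0.335) and -0.46 (limma adjusted p = 0.706). With shApela_1, 5 of 6 endoderm, 5 of 6 trophectoderm, 4 of 5 streak and mesoderm and 3 of 5 neuroectoderm markers lay below shLuc. So did 5 of 8 fibroblast and 6 of 10 embryonic stem cell markers, where 45.5% of all genes did. With shApela_2 these counts, in the same order, were 2, 3, 2, 1, 0 and 3, where 42.4% of all genes lay below. They include array 3 of shApela_2, the highest of the 9 arrays for 38.1% of all genes. All fibroblast markers but Thy1 and Pdgfrb were highest in their group on it. Col1a1, for example, read 7.655, 7.71 and 8.042 in shApela_2, against a shLuc mean of 7.709. Marker counts without that array are not given. Dab2, Krt8 and Krt18 were lower with shApela_2 too, at -0.26, -0.18 and -0.20 (limma adjusted p = 0.68, 0.705 and 0.756). All 3 were lowest in that group on its array 3. Krt8 read 9.622, 9.965 and 9.509 in shApela_2, against a shLuc mean of 9.875. Krt18 read 9.018, 9.212 and 8.518, against 9.118, so its difference rested mostly on that array. The part of these markers in the differences of the mitotic genes was not tested. Array 3 of shApela_2 stood apart: its median was 7.12 where the other 8 arrays lay at 7.03 to 7.07, and its interquartile range was 3.29 where the others had 3.50 to 3.59. For the 34 genes, differences with shApela_2 that turn or move by more than 1.5 times without it are also given without it. The number of arrays limits the precision of every value.

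All 34 genes were in the upper part of the table. Their means over the 9 arrays lay between 8.55 and 11.92 log2 units and each was above the table median. The arrays of a group agreed closely for them, with a median standard deviation of 0.054 within a group, against 0.062 over all genes and 0.075 over genes at or above the table median. Because probe sets differ in how well they bind, levels are compared between groups and not between genes.

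No mitotic gene passed the test with shApela_1. At an adjusted p under 0.05 (limma, Benjamini-Hochberg over all 19938 genes) 0 of 34 were called, where 67 genes or 0.336% of all genes were. Blocking on replicate number again gave 0 of 34, and 190 calls over all genes. At an unadjusted p under 0.05 there were 3, Cenpf, Cenpe and Top2a, or 8.82% against 7.69% of all genes, a share near the background. Among genes at or above the table median, where all 34 lie, that share was 12%. The 34 differences from shLuc ranged from -0.25 to 0.075 with a median of -0.013, against 0.0062 over all genes, and 23 of 34 were below 0 (67.6%, against 45.5% of all genes). Leaving out 1 array moved this median between -0.033 (without array 1 of shLuc) and -0.002 (without array 1 of shApela_1), and the count below 0 between 25 (without array 1 of shLuc) and 19 (without array 2 of shLuc or array 2 of shApela_1). Without array 2 of shLuc the median was -0.004. In 6 genes all 3 shApela_1 arrays lay below all 3 shLuc arrays (Cenpe, Cenpf, Kif11, Nusap1, Ect2 and Top2a) and in 0 they lay above. Together these were 17.6% of the genes, against 13.7% of all genes whose groups did not overlap in either direction (5.61% lower, 8.05% higher) and 18.5% of genes at or above the table median.

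With shApela_2 the differences covered a narrower range, and none passed. Again 0 of 34 genes were called by limma, where 3 genes or 0.015% of all genes were, and 0 had an unadjusted p under 0.05, where 5.77% of all genes did. Differences ranged from -0.12 to 0.070, with a median of -0.011 (0.015 over all genes and -0.023 over genes at or above the table median), and 21 of 34 lay below 0, or 61.8% against 42.4% of all genes and 61.9% of genes at or above the table median. Single arrays decided on which side of 0 most of these genes lay. The median was 0.017 with 12 of 34 below 0 without array 3 of shApela_2, 0.016 with 14 below without array 2 of shLuc, and 0.004 with 16 below without array 3 of shLuc. Without array 1 of shLuc or array 2 of shApela_2 it was -0.018 or -0.03, with 25 below in each case. Groups that did not overlap were found in 1 of 34 genes, Mad2l1, a checkpoint protein that inhibits Cdc20, which was higher in shApela_2. Over all genes the share was 10.3% (5.68% higher). The comparisons of shApela_1 and of shApela_2 share the shLuc arrays.

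The confidence intervals show what size of difference these arrays could still hold. The 95% interval of the difference lay wholly within 1.2-fold in either direction (0.263 log2 units) for 30 of 34 genes with shApela_1, or 88.2% against 73.5% of all genes. With shApela_2 it did so for 33 of 34, or 97.1% against 68.2%. The genes whose interval reached further were Cenpf, Cenpe, Top2a and Cdc25c with shApela_1, and Cdc25c with shApela_2. The median half-width of an interval was 0.121 log2 units, against 0.142 over all genes.

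**Figure D1:**
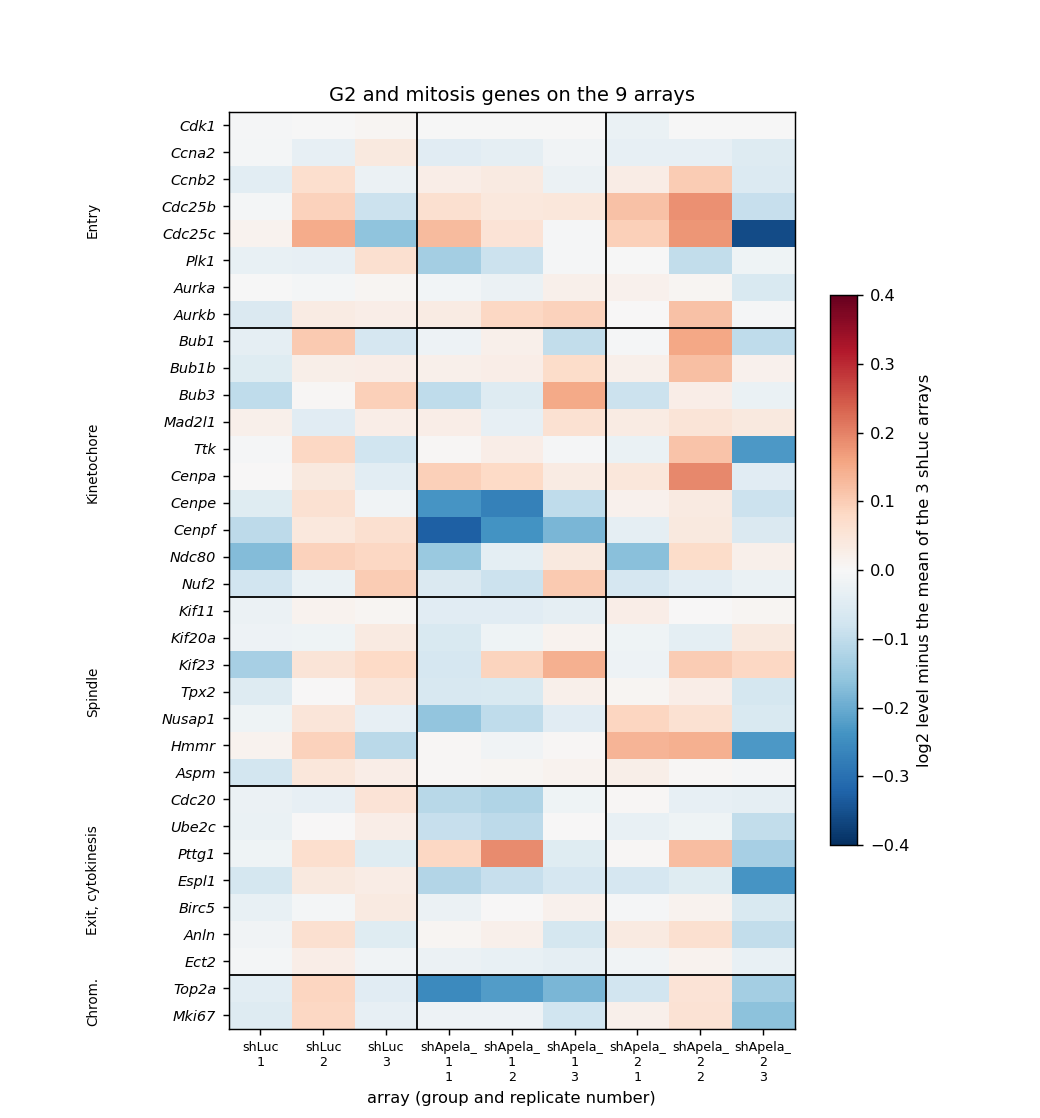
Log2 level of each of the 34 genes on each of the 9 arrays minus its mean in shLuc, in colour, with genes grouped by role and arrays grouped by hairpin. Cenpf, Cenpe and Top2a are below their shLuc mean on all 3 shApela_1 arrays.

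**Figure D2:**
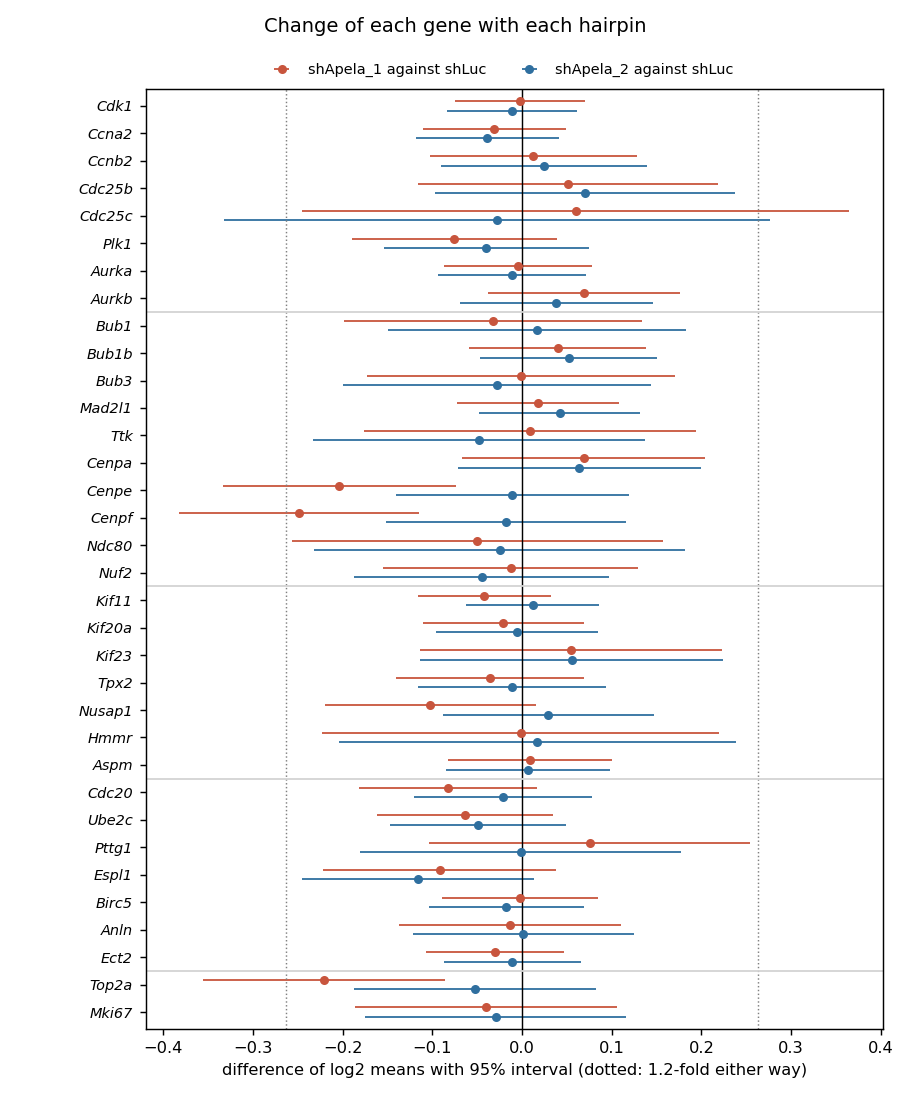
Difference from shLuc in log2 units for each gene with shApela_1 and with shApela_2, with limma's 95% confidence interval as a bar and 1.2-fold in either direction as dotted lines. The intervals of Cenpf, Cenpe and Top2a lie below 0 with shApela_1 and span 0 with shApela_2.

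None of the 8 genes of mitotic entry had groups that lay apart, where 13.7% of all genes did with shApela_1 and 10.3% with shApela_2. Among genes at or above the table median the shares were 18.5% and 11%. A count of 0 in 8 genes is near these shares. Of these, 4 lay below shLuc in shApela_1 and 5 in shApela_2, and their median differences were 0.0052 and -0.011. Cdk1, the kinase at the centre of mitotic entry, measured 11.60, 11.61 and 11.62 in shLuc, 11.61, 11.61 and 11.61 in shApela_1 and 11.58, 11.61 and 11.61 in shApela_2. All 9 values lay between 11.58 and 11.62, and the groups overlapped. The difference was -0.0023 with shApela_1 (95% interval -0.07 to 0.07) and -0.01 with shApela_2 (-0.08 to 0.06). For Ccna2, which encodes cyclin A2, the arrays read 11.90, 11.88 and 11.95 in shLuc, 11.86, 11.87 and 11.89 in shApela_1 and 11.88, 11.88 and 11.86 in shApela_2. The groups overlapped, and its differences were -0.03 and -0.04.

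Plk1 encodes polo-like kinase 1, which acts from mitotic entry to cytokinesis. It measured 11.40, 11.40 and 11.50 in shLuc, 11.30, 11.35 and 11.43 in shApela_1 and 11.43, 11.33 and 11.41 in shApela_2. Its lowest value was on array 1 of shApela_1 and its highest on array 3 of shLuc, the groups overlapped, and its differences were -0.08 (SE 0.05) and -0.04 (SE 0.05). Aurkb, the kinase of the chromosomal passenger complex, read 10.59, 10.68 and 10.67 in shLuc, 10.68, 10.73 and 10.74 in shApela_1 and 10.65, 10.77 and 10.64 in shApela_2. It was lowest on array 1 of shLuc, with differences of 0.07 and 0.04. Cdc25b, a phosphatase that activates Cdk1, gave 8.61, 8.71 and 8.53 in shLuc, 8.68, 8.66 and 8.66 in shApela_1 and 8.73, 8.80 and 8.53 in shApela_2. Array 3 of shApela_2 was its lowest and array 2 of the same group its highest, so the spread within that group exceeded both differences from shLuc, 0.05 and 0.07. Ccnb2 (cyclin B2), Aurka (a kinase of the centrosome and spindle) and Cdc25c (a phosphatase of the same family as Cdc25b) had differences from -0.0042 to 0.06 with shApela_1 and from -0.03 to 0.02 with shApela_2. Without array 3 of shApela_2, 3 of the 8 entry genes lay below shLuc and the median was 0.036; Cdc25c was then at 0.137, Cdc25b at 0.151, Ccnb2 at 0.065, Aurkb at 0.06 and Aurka at 0.013.

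Among the 10 kinetochore and checkpoint genes, Cenpf and Cenpe lay furthest from shLuc with shApela_1, and the medians of the 10 were -0.0069 with shApela_1 and -0.015 with shApela_2. Cenpf encodes a large coiled-coil protein of the outer kinetochore. It measured 10.06, 10.21 and 10.23 in shLuc, 9.84, 9.93 and 9.98 in shApela_1 and 10.13, 10.21 and 10.11 in shApela_2. Every shApela_1 array lay below every array of both other groups. The difference from shLuc was -0.25 (SE 0.06, 95% interval -0.38 to -0.12), or 84.2% of the shLuc level, with an adjusted p of 0.18 by limma. With shApela_2 it was -0.02 (-0.15 to 0.12).

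Cenpe, a kinesin that carries chromosomes from the kinetochore along microtubules, measured 10.02, 10.13 and 10.05 in shLuc, 9.83, 9.80 and 9.96 in shApela_1 and 10.08, 10.11 and 9.98 in shApela_2. As with Cenpf, the shApela_1 arrays were below all others. The difference was -0.20 (SE 0.06, interval -0.33 to -0.07), or 86.8% of the shLuc level, with limma's adjusted p at 0.272, and with shApela_2 it was -0.01 (-0.14 to 0.12).

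The other 8 kinetochore and checkpoint genes differed from shLuc by -0.05 to 0.07 with shApela_1 and by -0.05 to 0.06 with shApela_2. Bub1b encodes the checkpoint protein BubR1, and its values were 10.70, 10.77 and 10.77 in shLuc, 10.76, 10.77 and 10.82 in shApela_1 and 10.76, 10.86 and 10.76 in shApela_2. The groups overlapped, with differences of 0.04 and 0.05. Cenpa encodes the histone H3 variant that marks the centromere, and it read 10.89, 10.93 and 10.85 in shLuc, 10.98, 10.97 and 10.93 in shApela_1 and 10.94, 11.08 and 10.85 in shApela_2. It was highest on array 2 of shApela_2, and its differences were 0.07 (interval -0.07 to 0.20) and 0.06 (-0.07 to 0.20). Bub1 and Ttk, kinases of the checkpoint, differed by -0.03 and 0.01 with shApela_1 and by 0.02 and -0.05 with shApela_2. Ndc80 and Nuf2, partners in the complex that grips microtubules, differed by -0.05 and -0.01, then -0.02 and -0.04. Bub3, which brings Bub1 to the kinetochore, differed by -0.0011 and -0.03. Mad2l1 measured 11.88, 11.81 and 11.88 in shLuc, 11.88, 11.83 and 11.92 in shApela_1 and 11.89, 11.91 and 11.90 in shApela_2; its difference with shApela_2 was 0.04 (adjusted p = 0.73 by limma). Without array 3 of shApela_2, 3 of the 10 lay below shLuc and the median was 0.035, with Cenpa at 0.118, Bub1 at 0.075, Ttk at 0.043, Cenpe at 0.027, Cenpf at 0.002 and Ndc80 at -0.048.

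Spindle motors and spindle proteins lay below shLuc in 5 of 7 genes with shApela_1 and in 2 of 7 with shApela_2, with medians of -0.021 and 0.012. Kif11 is the motor that pushes spindle poles apart. Its values were 11.10, 11.14 and 11.13 in shLuc, 11.08, 11.08 and 11.09 in shApela_1 and 11.15, 11.13 and 11.13 in shApela_2. The 3 shApela_1 arrays were its lowest, with a difference of -0.04 (interval -0.12 to 0.03), and 0.01 with shApela_2. Nusap1, a microtubule-binding protein of the spindle, measured 11.14, 11.20 and 11.12 in shLuc, 10.99, 11.05 and 11.11 in shApela_1 and 11.24, 11.21 and 11.09 in shApela_2. Its shApela_1 arrays lay below its shLuc arrays, with differences of -0.10 (SE 0.05, limma adjusted p = 0.764) and 0.03. Kif23, a motor of the central spindle needed for cytokinesis, gave 10.93, 11.12 and 11.15 in shLuc, 11.00, 11.15 and 11.21 in shApela_1 and 11.05, 11.17 and 11.15 in shApela_2. It was lowest on array 1 in all 3 groups, and both differences, 0.05 and 0.06, were smaller than the spread within shLuc. Kif20a, another motor of the central spindle, Tpx2, which activates Aurka on the spindle, Hmmr and Aspm, 2 proteins of the spindle and its poles, had differences between -0.04 and 0.01 with shApela_1 and between -0.01 and 0.02 with shApela_2. Without array 3 of shApela_2, on which Hmmr was far lower than on arrays 1 and 2, Hmmr was at 0.14, Nusap1 at 0.074, Tpx2 at 0.018, Aspm at 0.013 and Kif20a at -0.027, and 1 of the 7 lay below shLuc.

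Genes of exit and cytokinesis lay below shLuc in 6 of 7 members with each hairpin, with medians of -0.030 and -0.017. Without array 3 of shApela_2, 4 of 7 lay below with that hairpin, with a median that rounded to 0; Pttg1 was then at 0.064, Anln at 0.05, Birc5 at 0.005, Ect2 at 0 when rounded, Cdc20 at -0.013 and Ube2c at -0.025. None passed the test, and the exceptions were Pttg1 (securin, the inhibitor of separase) with shApela_1, at 0.08, and Anln (anillin, a scaffold of the cleavage furrow) with shApela_2, at 0.0015. Espl1 encodes separase, the protease that cuts cohesin at anaphase, and it measured 9.89, 9.997 and 9.99 in shLuc, 9.84, 9.87 and 9.89 in shApela_1 and 9.89, 9.91 and 9.72 in shApela_2. Its differences were -0.09 with shApela_1 and -0.12 with shApela_2 (interval -0.25 to 0.01), the lowest of the 34 with that hairpin. Array 3 of shApela_2 was its lowest array, and without that array the difference with shApela_2 was -0.057.

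Cdc20, the activator of the anaphase-promoting complex, read 10.90, 10.89 and 10.98 in shLuc, 10.81, 10.80 and 10.91 in shApela_1 and 10.93, 10.89 and 10.89 in shApela_2. The groups overlapped, with differences of -0.08 (interval -0.18 to 0.02) and -0.02. Ube2c, the ubiquitin-conjugating enzyme of that complex, gave 10.73, 10.76 and 10.78 in shLuc, 10.66, 10.65 and 10.76 in shApela_1 and 10.72, 10.74 and 10.66 in shApela_2. Its differences were -0.06 and -0.05. Birc5 (survivin, a chromosomal passenger protein) differed by -0.0022 and -0.02. Ect2, which activates RhoA for cytokinesis, differed by -0.03 and -0.01.

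Top2a encodes DNA topoisomerase II alpha, which untangles sister chromatids. It measured 11.56, 11.69 and 11.56 in shLuc, 11.35, 11.38 and 11.42 in shApela_1 and 11.53, 11.66 and 11.47 in shApela_2. The shApela_1 arrays lay below all others. Its difference was -0.22 (SE 0.06, interval -0.36 to -0.09), or 85.8% of the shLuc level, with an adjusted p of 0.245 by limma, and with shApela_2 it was -0.05 (-0.19 to 0.08). Top2a was the only one of the 34 genes with a second probe set. That probe set was dim, with a mean of 5.60, and its difference with shApela_1 was -0.05. Averaging both probe sets gave -0.135 (limma adjusted p = 0.97). Mki67, the proliferation marker that coats mitotic chromosomes, read 11.14, 11.28 and 11.16 in shLuc, 11.18, 11.17 and 11.12 in shApela_1 and 11.21, 11.25 and 11.03 in shApela_2. Its groups overlapped, with differences of -0.04 and -0.03. Without array 3 of shApela_2, the difference with shApela_2 was 0.038 in Mki67 and -0.011 in Top2a.

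**Figure D3:**
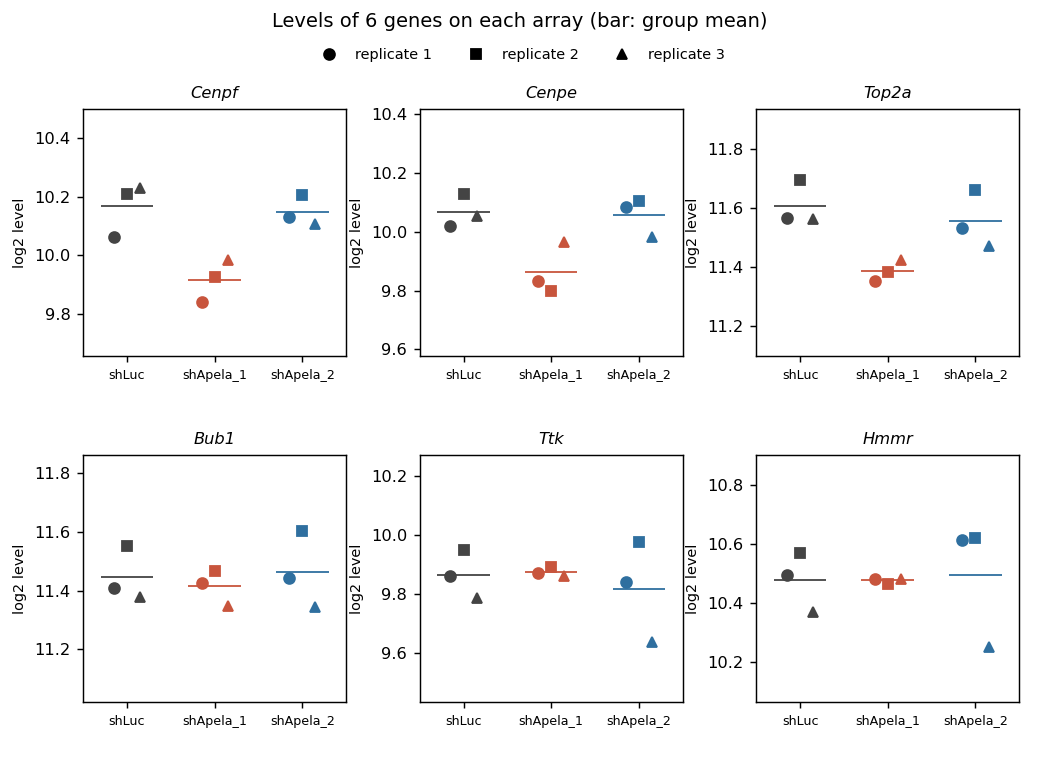
Log2 level of Cenpf, Cenpe, Top2a, Bub1, Ttk and Hmmr on each array, with circles, squares and triangles for arrays 1, 2 and 3 of a group and a bar at the group mean. In Cenpf, Cenpe and Top2a the 3 shApela_1 arrays are the lowest of the 9; in Bub1 and Ttk array 2 is the highest of each group.

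The hairpins were also set against each other, and against shLuc as one. With both hairpins pooled against shLuc, 0 of 34 genes were called by limma, where 0.015% of all genes were. At an unadjusted p under 0.05 there were 2 (4.58% of all genes), the median difference was -0.014 (-0.028 without array 2 of shApela_2, -0.005 without its array 3), and in 0 genes did the 6 hairpin arrays lie apart from the shLuc arrays (2.17% of all genes). Without array 1 of shLuc this median was -0.026, and without its array 2 or 3 it was -0.007. Between shApela_2 and shApela_1, 0 of 34 were called by limma, where 189 genes or 0.948% of all genes were. At an unadjusted p under 0.05 there were 4, Cenpf, Cenpe, Top2a and Nusap1, or 11.8% against 12.9% of all genes and 19% of genes at or above the table median. In Cenpe, Cenpf, Kif11 and Top2a every shApela_2 array lay above every shApela_1 array (7.49% of all genes; 17.6% in either direction).

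The difference between the hairpins was 0.23 in Cenpf (SE 0.06, interval 0.10 to 0.36, limma adjusted p = 0.134). It was 0.19 in Cenpe (0.06 to 0.32, limma adjusted p = 0.196), 0.17 in Top2a (0.03 to 0.30, limma adjusted p = 0.282) and 0.13 in Nusap1 (0.01 to 0.25, limma adjusted p = 0.333). None of these passed the threshold, so a response of these genes that differs between hairpins is not shown. Their call depended on the fit. With array weights, which count outlying arrays less, Cenpf, Cenpe and Top2a passed with shApela_1 (limma adjusted p = 0.0378, 0.0202 and 0.0367), and these 3 and Nusap1 passed between the hairpins. A second quantile normalization let Cenpf and Cenpe pass between the hairpins (limma adjusted p = 0.0406 and 0.0333), where 1.27% of all genes were called. Under array weights 3.45% of all genes were called with shApela_1 and 7.25% between the hairpins.

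Within arrays of the same replicate number, Cenpf was lower in shApela_1 than in shLuc by a difference of -0.22, -0.28 and -0.25 for numbers 1, 2 and 3, Cenpe by -0.19, -0.33 and -0.09, and Top2a by -0.21, -0.31 and -0.14. The median difference over the 34 genes was 0.0041, -0.055 and -0.017, with 16, 26 and 21 genes lower. With shApela_2 it was 0.031, 0.0079 and -0.070, with 6, 14 and 31 genes lower, so the direction of most genes was not the same at each number.

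Most of the 34 genes varied more with the replicate number than with the hairpin group. The 3 means by number spanned a wider range than the 3 group means in 25 of 34 genes, or 73.5%, against 46.7% of all genes and 52.3% of genes at or above the table median. The median range was 0.086 log2 units between numbers and 0.051 between groups, where over all genes these were 0.087 and 0.095. This held for 7 of 8 entry genes, 8 of 10 kinetochore and checkpoint genes, 5 of 7 spindle genes, 4 of 7 exit genes and 1 of 2 chromosome genes. The 9 genes with the wider range between groups were Ccna2, Cenpe, Cenpf, Kif11, Nusap1, Cdc20, Ube2c, Espl1 and Top2a. All of these ranges include array 3 of shApela_2, and ranges without it are not given.

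Arrays numbered 2 had the highest mean for 20 of 34 genes (29.2% of all genes). Those numbered 3 had it for 13 (55.3%) and those numbered 1 for 1 (15.6%). Among genes at or above the table median the shares for numbers 2, 3 and 1 were 38.7%, 44.1% and 17.2%. In 5 genes array 2 was the highest of its group in all 3 groups (14.7%, against 6.8% of all genes and 10.7% of genes at or above the table median): Ccnb2, Bub1, Ttk, Pttg1 and Anln. These were picked out after their values were seen. Bub1 measured 11.41, 11.55 and 11.38 in shLuc, 11.43, 11.47 and 11.35 in shApela_1 and 11.44, 11.60 and 11.35 in shApela_2. Ttk measured 9.86, 9.95 and 9.79 in shLuc, 9.87, 9.89 and 9.86 in shApela_1 and 9.84, 9.98 and 9.63 in shApela_2. In both, array 3 was also the lowest of each group. Hmmr read 10.49, 10.57 and 10.37 in shLuc, 10.48, 10.46 and 10.48 in shApela_1 and 10.62, 10.62 and 10.25 in shApela_2; array 3 was its lowest in shLuc and in shApela_2, while the shApela_1 arrays lay between 10.46 and 10.48. The sources used here do not say what the replicate number stands for.

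Array 3 of shApela_2 was the lowest of the 9 for 15 of 34 genes (22.3% of all genes), and 26 of 34 lay below their 9-array mean on it. Their median deviation there was -0.038, against -0.046 over genes at or above the table median and 0.030 over all genes. Array 2 of shApela_2 was the highest of the 9 for 10 genes (7.67% of all genes), with 29 of 34 above their 9-array mean. The lowest and the highest median deviation over the 9 arrays were thus both in shApela_2. The part of the array's narrower value range in its low readings was not tested.

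**Figure D4:**
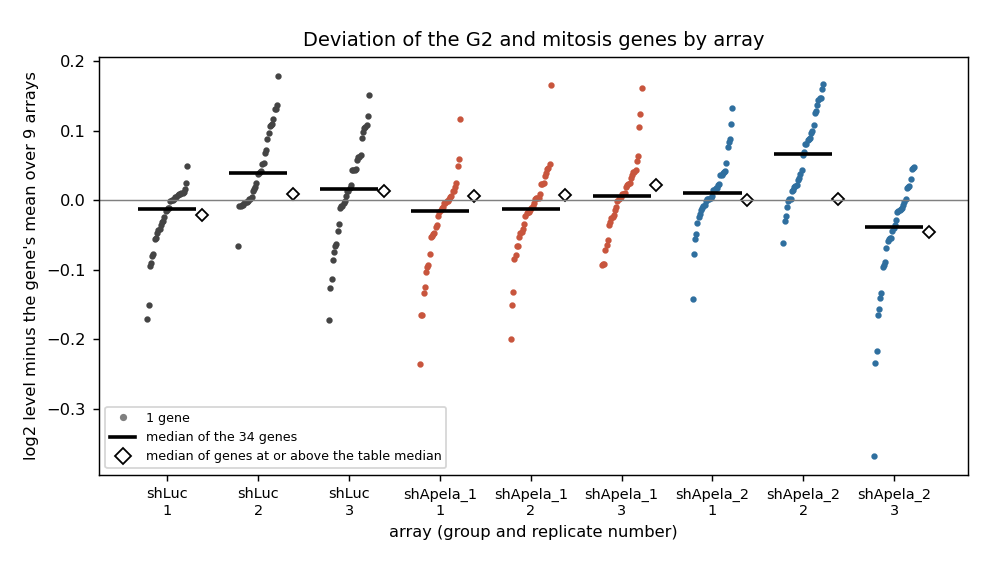
Deviation of each of the 34 genes from its own 9-array mean, in log2 units, on each array, with a bar at their median and a diamond at the median of all genes at or above the table median. The bar is highest on array 2 of shApela_2 (0.067) and lowest on array 3 of the same group (-0.038).

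Differences were also read by promoter element. The 23 genes with a CHR match in a window had median differences of -0.013 with shApela_1 and -0.011 with shApela_2, and the 6 genes with a window and no match had -0.007 and -0.006. Of the genes with the lowest differences in shApela_1, Cenpf and Top2a held a CHR match and Cenpe did not. These are descriptions of 29 genes, with no test.

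Other genes of the pathway were read from 6 further lists of 116 genes in all, in which 1 gene passed with shApela_1 and 0 with shApela_2 by limma, where 0.336% and 0.015% of all genes did. At an unadjusted p under 0.05 there were 7 (6.03%, against 7.69% of all genes) and 4 (3.45%, against 5.77%), so neither count stood above the background. Zwint, a kinetochore protein that helps recruit the RZZ checkpoint complex, was that gene. It measured 10.74, 10.74 and 10.78 in shLuc, 10.40, 10.45 and 10.50 in shApela_1 and 10.85, 10.88 and 10.81 in shApela_2. Every shApela_1 array was below every other array. It fell in shApela_1 by a change of -0.31 (SE 0.04, limma adjusted p = 0.0327), while the difference with shApela_2 was 0.09 (limma adjusted p = 0.68). The difference between the hairpins was 0.39 (SE 0.04, limma adjusted p = 0.00691). The call with shApela_1 was lost with array medians centred (limma adjusted p = 0.0572) and on leaving out any 1 array other than array 3 of shApela_2 (limma adjusted p from 0.0541 to 0.168). The call between the hairpins held on leaving out any 1 of the 9 arrays and was lost in a fit of only the 6 compared arrays (limma adjusted p = 0.0542).

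The 14 genes listed as transcription factors of this program or subunits of their complexes had median differences of 0.017 and -0.027 with shApela_1 and shApela_2. Of these 14, 0 passed. Foxm1, an activator of G2 genes, measured 9.36, 9.44 and 9.38 in shLuc, 9.54, 9.52 and 9.52 in shApela_1 and 9.47, 9.45 and 9.28 in shApela_2, with its shApela_1 arrays above its shLuc arrays. Its difference with shApela_1 was 0.13 (limma adjusted p = 0.618). Tfdp1, the partner of the E2F factors, differed by 0.10 and -0.12 (-0.204 without array 3 of shApela_2). Among 14 other regulators of entry (0 passed, medians -0.006 and -0.028), Cdc25a, a phosphatase that activates cyclin-dependent kinases, had 0.14 with shApela_1 (limma adjusted p = 0.409), and Pbk, a mitotic kinase, had -0.20 with shApela_2 (limma adjusted p = 0.68).

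The 33 other kinetochore and centromere genes had medians of -0.020 and -0.044. Of the 19 other spindle motors and midzone genes 0 passed, with 15 below shLuc in shApela_1 and 13 in shApela_2 and medians of -0.049 and -0.032. Cep55, which acts at abscission, differed by -0.21 with shApela_1 (limma adjusted p = 0.66), and Racgap1, a partner of Kif23, by -0.09. In the anaphase-promoting complex 0 of 18 genes passed (medians -0.003 and -0.022); its subunits Cdc26 and Anapc2 differed by -0.33 and -0.15 between shApela_2 and shApela_1. For condensin and mitotic cohesin 0 of 18 passed (medians -0.012 and -0.029); the cohesin subunits Stag1 and Stag2 differed by -0.17 and -0.12 with shApela_2. Without array 3 of shApela_2 the medians with that hairpin were 0.014 for the other kinetochore genes, 0.021 for the other spindle genes (7 of 19 below shLuc), -0.009 for the other entry regulators and 0.002 for condensin and cohesin. Between the hairpins, 1 of the 116 genes passed by limma, where 0.948% of all genes did, and 3 on blocking by replicate number (Zwint, Tfdp1 and Cdc26), where 3.28% of all genes were then called.

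The 33 genes of S phase and DNA replication were read beside the mitotic genes. With shApela_1, 11 of 33 lay below shLuc and their median was 0.031; with shApela_2, 26 of 33 lay below and the median was -0.014. These counts are 33.3% with shApela_1, against 45.5% of all genes, and 78.8% with shApela_2, against 42.4% of all genes and 61.9% of genes at or above the table median. By limma 0 passed in either comparison, with 1 (3.03%, against 7.69% of all genes) and 2 (6.06%, against 5.77%) at an unadjusted p under 0.05. Pola1, the catalytic subunit of DNA polymerase alpha, differed by -0.26 with shApela_1 (limma adjusted p = 0.0847). Ccne2, which encodes cyclin E2, differed by -0.34 with shApela_2 (limma adjusted p = 0.68). Whether mitotic and S phase genes differ in their response was not tested.

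**Figure D5:**
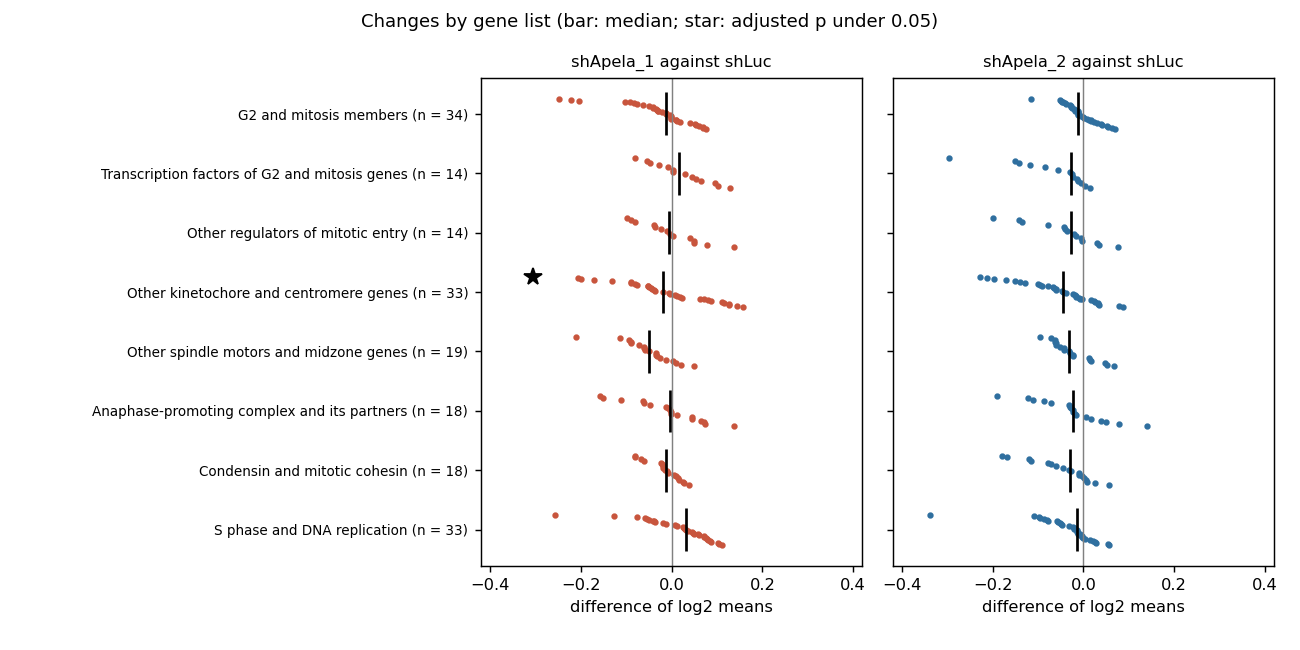
Differences from shLuc in log2 units of the genes of each list with shApela_1 and with shApela_2, 1 point per gene, with a bar at the list's median and a star on a gene with an adjusted p under 0.05. The medians lie between -0.049 (other spindle motors and midzone genes with shApela_1) and 0.031 (S phase with shApela_1), and the star is Zwint.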

How the data were processed

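Gene expression was measured on 9 Affymetrix arrays. The authors deposited log2 values normalized by RMA in Partek 6.6, per the submitters' processing notes. The size of the values was taken to mean base 2. Of 28853 probe sets, GEO's platform annotation gave 21775 a single gene symbol, 1578 several and 5500 none. Only the first were named; 21684 matched RefSeq (GRCm38.p6), with 0 symbols changed. Each of the 19938 genes was represented by its brightest probe set. All 9 arrays were fitted together in limma 3.58.1 (R 4.3.3, lmFit and eBayes, default prior, two-sided, 6 residual and 2.72 prior degrees of freedom), with Benjamini-Hochberg adjustment over all genes and a threshold of 0.05. The fit was tested on simulated independent arrays with changes larger than any of the mitotic genes showed. That test does not bear on differences as small as theirs. Differences are log2 means of the first group minus the second.

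Values on every array are given for the 2 genes of each role with the smallest p with each hairpin, and for Cdk1. Among the members, Mad2l1, Bub1, Ttk and Hmmr are given in the same way outside this rule. Of each pathway list the genes that passed are named, or the 2 with the smallest p. The members, lists and rules were chosen with earlier results of these data known. Same-numbered arrays shared deviations from their group means over all genes (r = 0.44, 0.401 and 0.684 for shLuc and shApela_1, 0.178, 0.213 and 0.209 for the hairpins, -0.013, 0.673 and 0.47 for shLuc and shApela_2). By the rule that every pair exceed 0.1 over all genes, the numbers pair all but the last, from the data alone. Over the members every pair exceeded 0.1, with r = 0.692, 0.854 and 0.889 for shLuc and shApela_2. For shLuc and shApela_1 the members gave 0.767, 0.462 and 0.737, and for the hairpins 0.623, 0.403 and 0.589. The main standard errors and intervals do not use this pairing. Alternatives were another variance prior, leaving out dim genes, a second quantile normalization, centred array medians, a replicate block, array weights, averaging a gene's probe sets, only the compared arrays, thresholds of 0.01 and 0.1, and leaving out each array.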

Additional observations from a re-analysis of the deposited data

Results flagged for a closer look

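Zwint, a kinetochore gene outside the 34, was the 1 gene called between the hairpins among the 34 members and the 116 pathway genes. Over all genes 189, or 0.948%, were called. The named pathway genes were picked because they passed or had the smallest p. Zwint was 0.39 log2 units higher in shApela_2 than in shApela_1 (limma adjusted p = 0.00691), with all 3 shApela_2 arrays above all 3 shApela_1 arrays. The call was lost in a fit of only the 6 compared arrays (limma adjusted p = 0.0542).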

How the results depend on the processing

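The count of 0 called members held with shApela_2 and with both hairpins together in every alternative run. With shApela_1 it became 3 with array weights, where 3.45% of all genes were called. Between the hairpins it became 2 after a second quantile normalization (1.27% of all genes) and 4 with array weights (7.25%). Leaving out any 1 array kept it at 0. The median difference of the members with shApela_2 was -0.051 with array medians centred and 0.032 with array weights, against -0.011; between the hairpins it was -0.025 with centred medians, against 0.013, and -0.019 without array 2 of shApela_2. Members below shLuc with shApela_2 numbered 29 with centred medians (62.3% of all genes) and 8 after a second quantile normalization or with array weights, against 21. Calls in the 6 pathway lists with shApela_1 were 0 with centred medians and 2 with array weights, and 0 to 1 on leaving out an array, against 1. Between the hairpins they were 7 with array weights, 0 with only the compared arrays and 1 to 2 on leaving out an array, against 1. The cause of these shifts was not tested.

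With the replicate number as a block, 0 members were called in any comparison (smallest limma adjusted p 0.0691 with shApela_1, 0.531 with shApela_2, 0.467 with both and 0.0506 between the hairpins), and the pathway lists gave 3 calls between the hairpins. Over all genes, calls with shApela_1 (67) were 37 with an intensity trend and robust prior, 31 with centred medians, 190 with the block, 688 with array weights, 44 with only the compared arrays and 3 to 146 on leaving out an array. With shApela_2 (3) they were 7 after a second quantile normalization, 8 with the block, 23 with array weights and 2 to 6 on leaving out an array. With both hairpins (3) they were 7, 2, 31 and 1 to 6 under the same settings. Between the hairpins (189) they were 254 after a second quantile normalization, 653 with the block and 1446 with array weights. Only the compared arrays gave 28 there, and leaving out an array gave 19 to 222.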
